A study of Mus musculus with 73 samples.

Results

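The *Nanog* and *Otx2* promoters were compared in their response to the same enhancers. A combination is a pair of fragments, each in a given position and orientation, and it was kept when it was measured in both promoter libraries with an activity above 0 in all replicates of both. This left 13074 of the 110180 combinations of the series, which are 91.8% of the *Nanog* and 93.1% of the *Otx2* library, and no combination of either library was at 0. Of these, 8251 carry 2 enhancers (EE), 4563 an enhancer and a control (EC) and 260 only controls (CC), from 58 enhancers and 20 controls in all.

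The series holds 8 promoter libraries, of which each was transfected separately into mESCs of the E14TG2a line cultured in 2i+LIF, a medium that keeps mouse embryonic stem cells in the naive state. Both libraries compared here were assayed on plasmids in 3 biological replicates, transfected on different days and collected 24 hours later. The reporter is transcribed from a promoter fragment amplified with primers that lie within the ends of a listed window of 450 bp, the enhancer pair lies downstream, and plasmids are not chromosomes, so that distance and chromatin of the native loci were not part of the assay. Each promoter was represented by 1 plasmid library, cloned, barcoded and transfected separately, and the replicates are transfections of that library, so that the promoter and its library cannot be told apart.

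Nanog is a homeodomain transcription factor of the naive pluripotency network, and its gene is transcribed in cells grown in 2i+LIF. Otx2 is a homeodomain factor that acts when naive cells pass to the primed state, and it is known for low expression in naive cells. A promoter turns the input of enhancers into transcription, and enhancers can differ in how well they work with a given promoter. The comparison asks whether a naive and a primed promoter read the same enhancers alike.

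A stretch of each promoter is shown because the promoter is the element that differs between the libraries. The listed *Nanog* window is chr6:122707114-122707563 (mm10, + strand), and its reverse primer ends at 122707539. It contains the RefSeq start site at 122707489, while the other RefSeq start site, at 122707565, lies 26 bases past the primer end. The listed *Otx2* window is chr14:48662796-48663245 (mm10, gene on the - strand), and its reverse primer ends at 48662824. It contains none of the 4 RefSeq start sites of *Otx2* in the table used, and the nearest, at 48662734, lies 90 bases past the primer end. The 250 bases before the *Nanog* start site (chr6:122707239-122707488, + strand) and the 161 bases of the *Otx2* window up to the end of the cloning primer (chr14:48662824-48662984, - strand) are given from RefSeq (GRCm38.p6) with the searched motifs in capitals.
Nanog: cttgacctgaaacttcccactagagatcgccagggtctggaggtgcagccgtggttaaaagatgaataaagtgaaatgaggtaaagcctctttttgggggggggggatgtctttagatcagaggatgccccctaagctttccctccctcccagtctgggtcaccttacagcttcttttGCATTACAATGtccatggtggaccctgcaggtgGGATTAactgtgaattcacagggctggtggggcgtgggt
Otx2: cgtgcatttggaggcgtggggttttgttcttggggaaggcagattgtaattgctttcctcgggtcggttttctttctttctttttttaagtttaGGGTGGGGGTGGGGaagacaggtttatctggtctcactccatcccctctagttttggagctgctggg
Both strands of these stretches were searched for 12 motifs, and the rest of each cloned promoter was not searched. The *Nanog* stretch held the core of the composite Oct-Sox motif (TTGTNATGC), which 0.648% of 32851 RefSeq windows of this length hold, overlapped by a Sox motif (CATTGT, 10.7% of windows). It also held the motif of Otx and related homeodomain factors (TAATCC, 6.25% of windows). The *Otx2* stretch held 2 overlapping Klf motifs (CCNCACCC, 8.62% of windows of its length) and none of the others. The octamer (ATGCNAAT), the Esrrb motif (AAGGTCA), the GC box (GGGCGG), the Stat motif (TTCNNNGAA), the Tcf/Lef motif (CTTTGAT), the NF-Y motif (CCAAT), the AP-1 motif (TGANTCA) and the TATA box (TATAAA) were in neither stretch. These matches describe the letters shown only, and absence from a stretch is not absence from the cloned promoter.

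The baseline of a library is the median activity, the cDNA to pDNA ratio, over its CC combinations. The baselines of *Nanog* were 0.372, 0.293 and 0.337 in replicates 1 to 3, and those of *Otx2* were 0.457, 0.447 and 0.364. The *Otx2* baseline was thus higher in most replicates, but replicate 3 of *Otx2* fell within the range of *Nanog*. On the log2 scale, *Nanog* had a baseline of -1.59 ± 0.17 (SD, n = 3) and *Otx2* of -1.25 ± 0.18 (SD, n = 3), a difference of -0.34 ± 0.15 (SE) that did not pass an exact two-sided permutation test over replicates (p = 0.2, n = 3 per library). With 3 against 3 replicates this test cannot give a p below 0.1.

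The boost of a combination is its log2 activity minus the log2 baseline of the same library and replicate. The median boost of single enhancers (EC) was 0.89, 1.02 and 0.94 with *Nanog* and 0.80, 0.73 and 0.94 with *Otx2* in replicates 1 to 3. The median boost of enhancer pairs (EE) was 1.49, 1.80 and 1.59 with *Nanog* and 1.35, 1.33 and 1.62 with *Otx2*. In both types replicates 1 and 2 of *Otx2* lay below all *Nanog* replicates, and replicate 3 of *Otx2* lay among them. The means differed by 0.13 ± 0.07 (SE) for EC and 0.20 ± 0.13 (SE) for EE, and neither passed the exact permutation test (p = 0.3 for each, n = 3 per library). CC combinations differed by 0.04 ± 0.02 (SE; exact permutation test, p = 0.2, n = 3 per library). Most CC combinations that set the baselines are among those shared, so that the CC boost is held near 0 by construction. The CC value is therefore no separate comparison of the promoters. The plot of baselines and boosts by replicate shows these values.

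**Figure D1:**
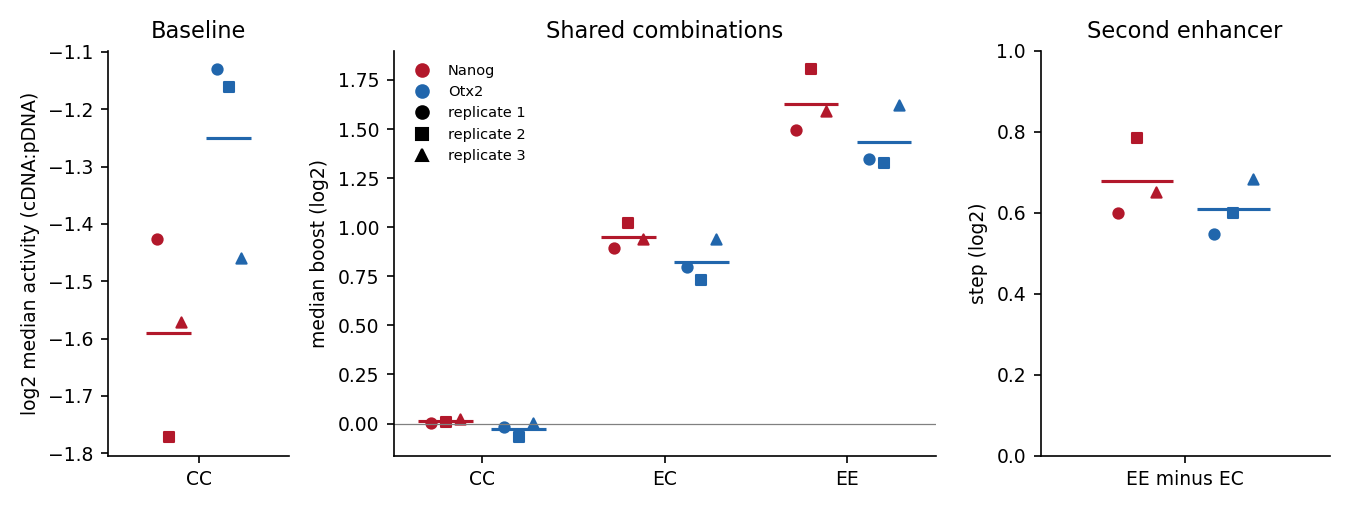
Left, log2 median activity (cDNA:pDNA) over control pairs. Middle, median log2 boost over the shared CC, EC and EE combinations. Right, median EE minus median EC boost. Each point is a biological replicate, marked by its shape, the bars are means of 3 replicates, red is *Nanog* and blue is *Otx2*. Replicate 3 of *Otx2* has the lowest *Otx2* baseline and the highest *Otx2* boosts.

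Replicate 3 of *Otx2* moved with these results. Without it, the difference was 0.19 for EC and 0.29 for EE, against 0.13 and 0.20 with it, and neither passed the exact permutation test (p = 0.1 and p = 0.2, 3 against 2 replicates, with 0.1 again the smallest p possible). Before the baseline was subtracted, the median log2 activity over EE combinations was 0.07, 0.03 and 0.02 with *Nanog* and 0.22, 0.17 and 0.16 with *Otx2*, so that the *Otx2* values were higher in every replicate. Each cDNA and pDNA count was divided by the total of its sample, so that activities are relative to the other combinations of a library. A higher boost and a lower baseline of the *Nanog* library therefore cannot be told apart.

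The step from a single enhancer to a pair does not depend on the baseline. The median EE boost minus the median EC boost was 0.60, 0.78 and 0.65 with *Nanog* and 0.55, 0.60 and 0.68 with *Otx2*. The ranges overlapped, and the difference of 0.07 ± 0.07 (SE) was no larger than the spread between replicates (exact permutation test, p = 0.5, n = 3 per library). The spread of responses was compared in the same way. The SD of log2 activity over EC combinations was 0.84 ± 0.07 (SD, n = 3) with *Nanog* and 0.74 ± 0.06 (SD, n = 3) with *Otx2* (exact permutation test, p = 0.2). Over EE combinations it was 0.69 ± 0.07 (SD, n = 3) with *Nanog* and 0.66 ± 0.06 (SD, n = 3) with *Otx2* (exact permutation test, p = 0.6). With the replicate noise taken out through covariances between replicates, the *Nanog* over *Otx2* ratio of the SDs was 1.15 for EC and 1.07 for EE combinations.

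For a paired difference, the boost with *Otx2* was subtracted from the boost of the same combination with *Nanog*. It was above 0 for 70.3% of EC combinations (3206 of 4563), for 83.2% of EE combinations (6863 of 8251) and for 53.5% of CC combinations (139 of 260). The median was 0.14 for EC, 0.20 for EE and 0.03 for CC. The SD over combinations was largest where activity was lowest, with 0.48 for CC, 0.30 for EC and 0.24 for EE. Combinations share fragments and a library, so that these shares describe the libraries and carry no test. The baseline holds the CC differences around 0, so that they are no contrast to those of EC and EE. The order of the combinations was alike with both promoters. Pearson's r of the EE boosts ranged from 0.87 to 0.93 between replicates of a library and from 0.84 to 0.91 between replicates of the 2 libraries, across 8251 combinations that are not independent of each other. For EC these ranges were 0.87 to 0.92 within and 0.82 to 0.88 between libraries.

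Single enhancers were compared by the median boost over all their shared EC combinations. At least 5 such combinations were required, which 56 of the 58 enhancers met. Klf2_E046 had 3 and Nanog_E089 had none, so that these enhancers were compared in pairs only. Over the 56 enhancers, the boosts with *Nanog* and *Otx2* had a Pearson's r of 0.98 and a Spearman's rho of 0.97, as a description of enhancers that share libraries and controls. The strongest were Pou5f1_E081, Nanog_E073 and Klf2_E058, and the weakest Otx2_E110, Pou5f1_E084 and Pou5f1_E079. Pou5f1_E081 ranked 1 with both promoters, with a boost of 2.43 ± 0.26 (SD, n = 3) with *Nanog* and 2.18 ± 0.25 (SD, n = 3) with *Otx2*. Otx2_E110 lay below the controls with both, at -0.23 ± 0.06 (SD, n = 3) and -0.37 ± 0.20 (SD, n = 3).

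**Figure D2:**
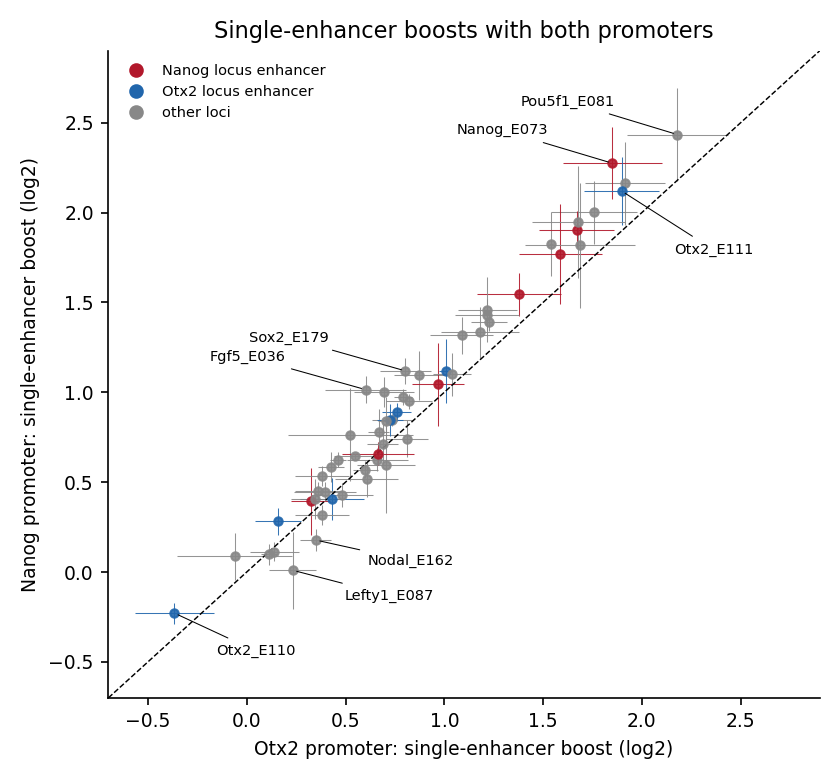
Single-enhancer boost (log2) with the *Otx2* promoter (x axis) and the *Nanog* promoter (y axis) for 56 enhancers. Points are means and bars are SDs of 3 replicates, red marks enhancers of the *Nanog* locus and blue those of the *Otx2* locus, and the dashed line marks equal boosts. Most points lie above the line, further from it among the strong enhancers, and Nodal_E162 and Lefty1_E087 lie below it.

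No enhancer passed the test for a difference between the promoters. Limma called 0 of 56 enhancers higher with *Nanog* (0%) and 0 of 56 lower (0%) at an adjusted p of 0.05. At an unadjusted p under 0.05, 5 were higher and 0 lower, and the smallest adjusted p was 0.16. The difference was above 0 for 43 of the 56 enhancers, with a median of 0.13 and a range from -0.22 to 0.42. All *Nanog* replicates lay above all *Otx2* replicates for 12 enhancers (21.4%) and below them for 1 (1.79%). Without *Otx2* replicate 3, limma called 15 enhancers higher with *Nanog* and 0 lower. The shift common to all enhancers was removed in the next comparison.

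To set enhancers against the common shift, the median over enhancers was subtracted from each replicate. These relative boosts do not use the baseline. Limma called 0 of 56 higher with *Nanog* (0%) and 0 of 56 lower (0%), while 4 were higher and 8 lower at an unadjusted p under 0.05, and the smallest adjusted p was 0.07. The replicates of the promoters did not overlap for 5 enhancers higher with *Nanog* (8.93%) and 9 lower (16.1%). Without *Otx2* replicate 3 there was again no call in either direction. Without *Nanog* replicate 3, 1 enhancer was lower.

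The enhancers at both ends of the order are described here, of which Fgf5_E036, Sox2_E179, Nodal_E162, Lefty1_E087, Klf2_E057 and Lefty1_E094 were chosen after their values were seen. The primers of the leading fragments are printed 5′ to 3′ in lower case, since they delimit what was cloned. The position beside each forward primer is the listed window in mm10, and the primers lie within its ends, so that the cloned fragment is shorter.
Nanog_E073 forward, chr6:122702446-122702895: aattgttaacctgctggaatttccttc
Nanog_E073 reverse: gtcaaaggagtctgcttaggagac
Fgf5_E036 forward, chr5:98255706-98256155: tttctggaccaccacgttaatcactc
Fgf5_E036 reverse: ctgtgcttgaatttccaaaccctcc
Nodal_E162 forward, chr10:61423210-61423659: cttctcaggtcacgtttgcctc
Nodal_E162 reverse: cgataggcattgtactgcttggg
Lefty1_E087 forward, chr1:180889795-180890244: aaacacacatatgcagtagacacacag
Lefty1_E087 reverse: taaatatgcaagagttcaccacccttg
Fgf5_E036 lies within the RefSeq gene *Fgf5* and Nodal_E162 within *Nodal*, while no RefSeq gene is listed at Nanog_E073 and Lefty1_E087.

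Nanog_E073, from the locus of the promoter that carries its name, had the largest difference. Its boost over 37 EC combinations was 2.11, 2.50 and 2.22 with *Nanog* and 1.66, 1.76 and 2.13 with *Otx2* in replicates 1 to 3. The highest *Otx2* replicate lay just above the lowest *Nanog* replicate. The difference was 0.42 ± 0.14 (SE, limma), with an adjusted p of 0.16. It was 0.33 with the enhancer in position 1, the fragment listed first in a combination, and 0.52 in position 2. The difference was above 0 in 34 of its 37 EC combinations, and relative to the common shift it was 0.31 ± 0.11 (SE; limma, adjusted p = 0.16).

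Fgf5_E036 is from the locus of *Fgf5*, a growth factor gene that is expressed in primed cells. Its boost over 47 EC combinations was 0.95, 0.99 and 1.1 with *Nanog* and 0.56, 0.42 and 0.82 with *Otx2*. All *Nanog* replicates were above all *Otx2* replicates. The difference of 0.41 ± 0.11 (SE, limma; adjusted p = 0.16) was alike in position 1 (0.42) and position 2 (0.41), and 39 of the 47 combinations were above 0. It ranked 22 by its boost with *Nanog* and 36 with *Otx2*.

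Sox2_E179 followed with 0.32 ± 0.10 (SE; limma, adjusted p = 0.16) and replicates that did not overlap. It ranks 21 of the 56 enhancers by its mean boost over both promoters. Lefty1_E094, which overlaps the noncoding gene Gm39715, had a difference of 0.29 ± 0.11 (SE; limma, adjusted p = 0.22), again without overlap. Its boosts with *Otx2* hardly varied, at 1.53, 1.53 and 1.55.

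At the other end, Nodal_E162 was lower with *Nanog* in every replicate. Nodal is a ligand of the TGF-beta family. The boost of Nodal_E162 over 153 EC combinations was 0.11, 0.21 and 0.22 with *Nanog* and 0.33, 0.28 and 0.44 with *Otx2*. The replicates did not overlap, the difference was -0.17 ± 0.10 (SE; limma, adjusted p = 0.31), and 26 of 153 combinations were above 0. Relative to the common shift the difference was -0.28 ± 0.06 (SE; limma, adjusted p = 0.07), the smallest adjusted p of that fit.

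Lefty1_E087 had the lowest difference. Lefty1 inhibits Nodal signalling. Its boost over 21 EC combinations was 0.05, 0.20 and -0.22 with *Nanog* and 0.26, 0.10 and 0.34 with *Otx2*. The replicates overlapped, and the difference was -0.22 ± 0.12 (SE; limma, adjusted p = 0.31). Both enhancers are weak, so that they raised activity little over the controls with either promoter.

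**Figure D3:**
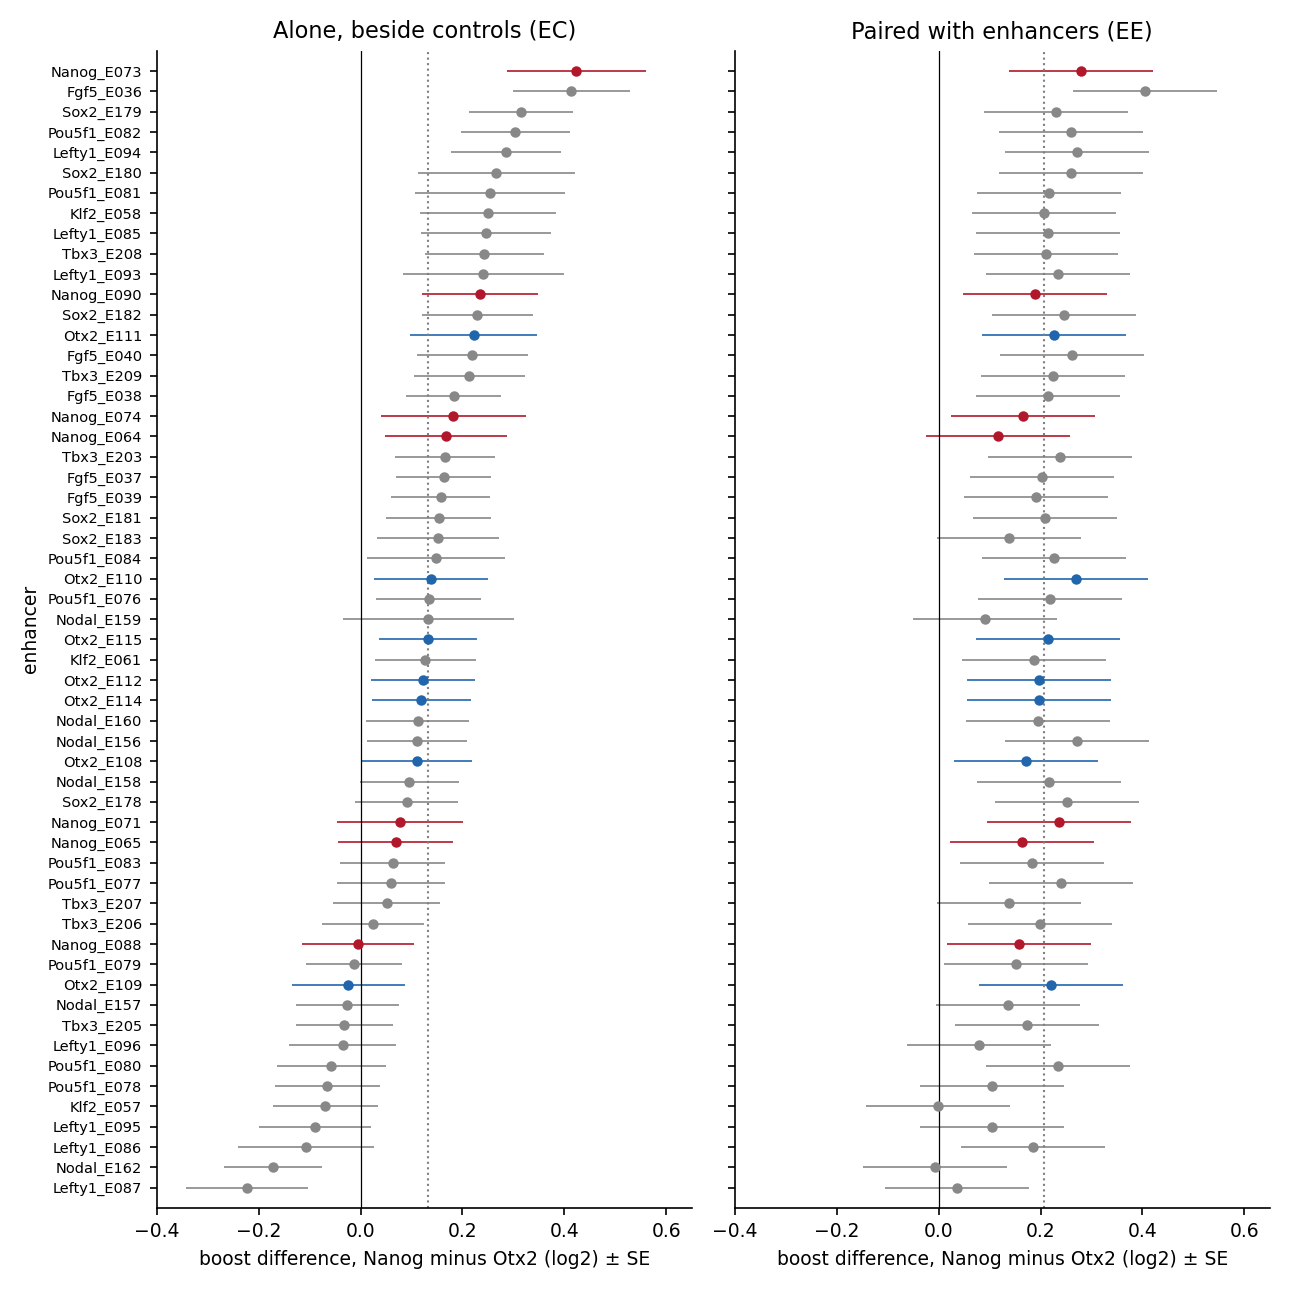
Difference of the median boost, *Nanog* minus *Otx2* (log2), for 56 enhancers beside controls (left) and in enhancer pairs (right), in the order of the left panel. Bars are limma's SE over 3 replicates per library, and on the right they are a single value pooled over enhancers. The dotted line is the median of the enhancers drawn, red marks the *Nanog* locus and blue the *Otx2* locus. The right panel has a higher centre and a narrower range, and Fgf5_E036 is high and Nodal_E162 low in both.

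The 8 enhancers of the *Nanog* locus were described with the promoter of their own gene. Of the 7 with EC data, 6 had a difference above 0, beside 43 of 56 over all enhancers. Their median was 0.17 beside 0.13 over all enhancers, and 0.06 relative to the common shift. By their listed windows, Nanog_E073 overlaps Nanog_E074 by 66 bp, and the latter had a difference of 0.18 ± 0.14 (SE). Nanog_E090 (0.23 ± 0.11, SE), Nanog_E064 (0.17 ± 0.12, SE), Nanog_E071 (0.08 ± 0.12, SE), Nanog_E065 (0.07 ± 0.11, SE) and Nanog_E088 (-0.01 ± 0.11, SE) gave the rest. The fragments Nanog_E088, Nanog_E089 and Nanog_E090 lie within *Slc2a3*, a glucose transporter gene.

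The 7 enhancers of the *Otx2* locus did not have higher boosts with their own promoter. Their differences ranged from -0.02 to 0.22 with a median of 0.12, beside 0.13 over all enhancers. Above 0, which is toward *Nanog*, were 6 of the 7, beside 43 of the 56 enhancers in all, and none passed the test. Relative to the common shift their median was 0.01. Otx2_E111, the strongest of them, had a boost of 2.12 ± 0.19 (SD, n = 3) with *Nanog* and 1.90 ± 0.19 (SD, n = 3) with *Otx2*, a difference of 0.22 ± 0.12 (SE; limma, adjusted p = 0.31). Otx2_E110 (0.14 ± 0.11, SE), Otx2_E115 (0.13 ± 0.10, SE), Otx2_E112 (0.12 ± 0.10, SE), Otx2_E114 (0.12 ± 0.10, SE), Otx2_E108 (0.11 ± 0.11, SE) and Otx2_E109 (-0.02 ± 0.11, SE) followed. The listed window of Otx2_E111 overlaps Otx2_E110 by 88 bp and Otx2_E112 by 123 bp, and these neighbours had boosts of -0.30 and 0.22 as means over both promoters, so that the fragments differ much in strength and little in their difference between promoters.

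Among the 9 loci, the median EC difference was highest for *Sox2* (0.19, 6 of 6 enhancers above 0) and *Fgf5* (0.18, 5 of 5). It was 0.06 for *Pou5f1*, with 6 of 9 above 0. *Lefty1* alone had a median below 0 (-0.04), with 3 of 7 enhancers above 0 and a range from -0.22 to 0.29. Over all loci 43 of 56 enhancers were above 0. The loci hold 3 to 9 enhancers each, and no test was made between them. Other overlapping fragments differed by up to 0.24 in their differences, as Pou5f1_E082 (0.30) and Pou5f1_E083 (0.06), which share 100 bp of their listed windows. Pou5f1_E078 (-0.07) and Pou5f1_E079 (-0.01), which share 292 bp, were close.

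In the means over replicates, the single-enhancer difference between the promoters was larger among strong enhancers, while the difference in pairs varied little with strength. This trend was not tested over replicates. The related SD over EC combinations overlapped between the libraries (exact permutation test, p = 0.2, n = 3 per library). Without 1 replicate, the relative difference of the strong Pou5f1_E081 ranged from 0.03 to 0.25. Since a boost that enters the difference also enters the mean of both promoters, the enhancers were ordered by their boost in the *Klf2* library, which was measured on its own, and divided into 4 groups of 14. Among the 14 weakest (boost with *Klf2* from -0.14 to 0.39), the median *Nanog* minus *Otx2* difference was -0.02, and 6 of 14 were above 0. It was 0.12 and 0.13 in the middle groups, with 12 and 11 of 14 above 0. Among the 14 strongest (boost with *Klf2* from 1.01 to 2.20) it was 0.24, and 14 of 14 were above 0, with a lowest value of 0.13. Across the 56 enhancers Pearson's r was 0.58 and Spearman's rho 0.66, a description without a test since all enhancers share the libraries. In pairs, the medians of the same 4 groups were 0.19, 0.20, 0.22 and 0.21 from the weakest to the strongest, with 13, 14, 13 and 14 of 14 above 0, and Pearson's r with the *Klf2* boost was 0.16 and Spearman's rho 0.21. Each pair value averages over many partner enhancers, so that the trends of single enhancers and of pairs are not measured alike. Among single enhancers, Fgf5_E036 stood above the median of its group, and Nodal_E162 and Lefty1_E087 below theirs.

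**Figure D4:**
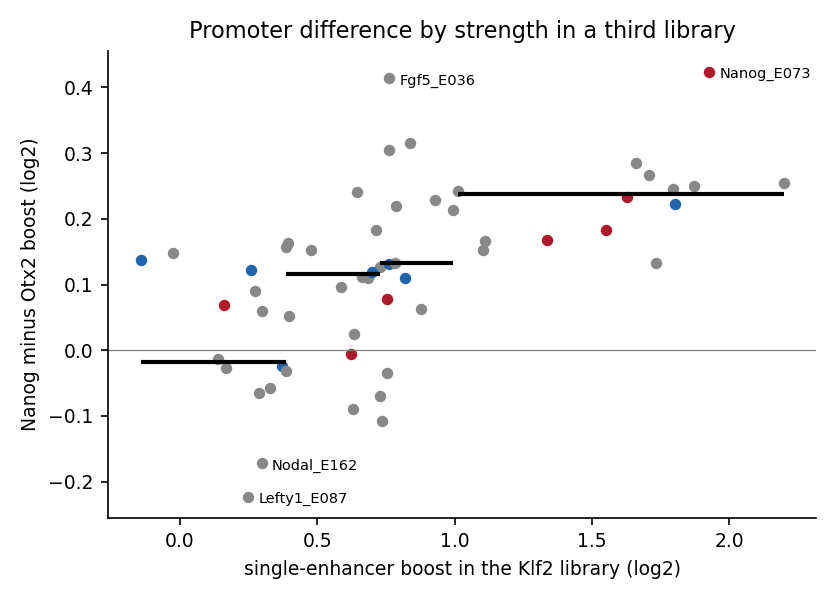
*Nanog* minus *Otx2* difference of the single-enhancer boost (log2, y axis) against the boost of the same enhancer in the *Klf2* library (log2, x axis) for 56 enhancers. Black bars are the medians of 4 groups of 14 by *Klf2* boost (-0.02, 0.12, 0.13 and 0.24), red marks the *Nanog* locus and blue the *Otx2* locus. The single-enhancer difference is around 0 among weak enhancers and above 0 in all 14 of the strongest group.

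The same enhancers were compared in pairs, over all shared EE combinations that hold them. Limma called 0 of 58 higher with *Nanog* (0%) and 0 of 58 lower (0%), with 2 higher and 0 lower at an unadjusted p under 0.05 and a smallest adjusted p of 0.26. The differences were above 0 for 56 of 58 enhancers, with a median of 0.21 and a range from -0.01 to 0.41. The replicates did not overlap for 8 enhancers higher with *Nanog* (13.8%) and for 0 lower (0%). Without *Otx2* replicate 3, limma called 24 higher and 0 lower. In the fit to all replicates, limma gave the same SE of 0.14 to the enhancers, a value pooled over them. It is thus not the replicate spread of each enhancer. The enhancers also share the same replicates and their common shifts, which the p-values of this fit do not take into account.

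The order of the enhancers in pairs resembled that of single enhancers, with a Pearson's r of 0.72 and a Spearman's rho of 0.61 across 56 enhancers measured in the same libraries. Fgf5_E036 had the largest difference in pairs, 0.41 ± 0.14 (SE; limma, adjusted p = 0.26), and 223 of its 237 EE combinations were above 0. Its EE boosts were 1.55, 1.82 and 1.74 with *Nanog* and 1.22, 1.11 and 1.56 with *Otx2*. The highest *Otx2* value lay just above the lowest *Nanog* value. Nanog_E073 came next with 0.28 ± 0.14 (SE; limma, adjusted p = 0.27).

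Nodal_E162 had the lowest difference in pairs, -0.01 ± 0.14 (SE; limma, adjusted p = 0.98), and 229 of 431 combinations were above 0. Klf2_E057 (-0.00 ± 0.14, SE) and Lefty1_E087 (0.04 ± 0.14, SE) were beside it. The spread over enhancers was 0.07 (SD) in pairs and 0.14 for single enhancers, and each pair-context value averages over many partner enhancers. Among EE combinations, the replicates of the promoters did not overlap for 1520 higher with *Nanog* (18.4%) and 105 lower (1.27%). Among the combinations of Lefty1_E094, 135 of 332 were higher without overlap (40.7%) and 0 lower. Among those of Fgf5_E036, 93 of 237 were higher (39.2%) and 2 lower, and among those of Nodal_E162, 24 of 431 were higher (5.57%) and 41 lower (9.51%). These counts come from the same replicates as the differences above and count combinations, so that a partner enters once for each position and orientation.

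Pairs of enhancers from the *Nanog* locus (78 combinations) had median boosts of 1.66, 2.14 and 1.79 with *Nanog* and 1.61, 1.72 and 1.98 with *Otx2*, and the ranges overlapped (difference 0.10; exact permutation test, p = 0.6, n = 3 per library). Pairs from the *Otx2* locus (120 combinations) had 1.47, 1.73 and 1.56 with *Nanog* and 1.32, 1.29 and 1.59 with *Otx2* (difference 0.19; exact permutation test, p = 0.3, n = 3 per library). Pairs with an enhancer of each locus (226 combinations) differed by 0.19 (exact permutation test, p = 0.4, n = 3 per library). Pairs within a locus and across loci had the same difference, 0.20 over 837 and 0.20 over 7414 combinations. By orientation, the EC difference was 0.13 with the enhancer on the + strand and 0.13 on the - strand. With the enhancer in position 1 the EC difference was 0.16 and in position 2 it was 0.11, and neither passed the exact permutation test (p = 0.2 and p = 0.3, n = 3 per library).

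Deviations from the additive model were then compared. The expected activity of a pair is the sum of the median activities of both single enhancers in their positions minus the baseline, and it was available for 7918 EE combinations. The median log2 of observed over expected activity was -0.06, -0.01 and -0.01 with *Nanog* and -0.05, -0.02 and -0.03 with *Otx2*. The values overlapped, and the difference of 0.01 ± 0.02 (SE) was within the spread of the replicates (exact permutation test, p = 0.7, n = 3 per library). Of the paired differences, 49.3% were above 0, and their 5th and 95th percentiles were -0.36 and 0.38. Pairs with Nanog_E073 fell further below the additive expectation with *Nanog* (-0.30, -0.28 and -0.23) than with *Otx2* (-0.13, -0.12 and -0.16). The single-enhancer activity of Nanog_E073 enters this expectation, so that the value is not independent of its higher EC boost. Such a deviation was not particular to this enhancer. The *Nanog* minus *Otx2* difference was -0.13 for Nanog_E073, and it was 0.19 for Lefty1_E086 and 0.11 for Pou5f1_E080. The replicates overlapped for Lefty1_E086 and not for Pou5f1_E080.

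Each combination was also tested on its own. Limma called 5 of 13074 combinations higher with *Nanog* (0.0382%) and 2 lower (0.0153%). At an unadjusted p under 0.05, 1487 were higher and 217 lower. Of the called combinations, 3 were EE and 2 were EC, all higher with *Nanog*, and the 2 lower were CC. Without *Otx2* replicate 2 there were 0 calls in either direction, without *Otx2* replicate 1 there were 38 higher and 12 lower, and without *Nanog* replicates 1, 2 and 3 there were 3, 1 and 4 higher and 0, 4 and 2 lower.

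Fgf5_E039 on the + strand followed by Lefty1_E087 on the + strand had boosts of 1.38, 1.41 and 1.39 with *Nanog* and -0.41, -0.04 and -0.10 with *Otx2*. It lay near the median of enhancer pairs with *Nanog* and at the level of the controls with *Otx2*, and the difference was 1.58 ± 0.17 (SE; limma, adjusted p = 0.02). The same fragments in 4 other orders or orientations had differences from -0.38 to 0.13, and 2 of the 4 were above 0. The difference was thus not seen in the other arrangements.

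Pou5f1_E083 on the - strand followed by Pou5f1_E076 on the + strand had boosts of 2.92, 3.04 and 2.57 with *Nanog* and 1.23, 1.28 and 1.64 with *Otx2*, a difference of 1.46 ± 0.19 (SE; limma, adjusted p = 0.04). In 7 other arrangements the difference ranged from -0.08 to 0.36. Pou5f1_E082 followed by Nodal_E156, both on the + strand, had boosts of 1.66, 1.87 and 1.76 with *Nanog* and 0.66, 0.52 and 0.68 with *Otx2*. The difference was 1.14 ± 0.16 (SE; limma, adjusted p = 0.04), and 4 of 5 other arrangements were above 0, with a highest value of 0.42.

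The called EC and CC combinations were named after their values were seen. Both called EC combinations hold the control E27-shuffled3_E27-shuffled3, with Pou5f1_E084 (1.84 ± 0.25, SE; limma, adjusted p = 0.04) and Otx2_E115 (1.41 ± 0.19, SE; limma, adjusted p = 0.04). The only other arrangement of the former had a difference of -0.40, and 7 other arrangements of the latter ranged from -0.10 to 0.61. Both called CC combinations hold E6-shuffled2_E6-shuffled2, with RandomE5_RRandom5 (-1.34 ± 0.17, SE; limma, adjusted p = 0.03) and E95-shuffled3_E95-shuffled3 (-1.49 ± 0.18, SE; limma, adjusted p = 0.03). Controls in other arrangements gave -0.57 to 0.97 for the former pair and 0.19 for the latter. E6-shuffled2_E6-shuffled2 was the control in the most CC combinations, 63 of the 260 shared, with a median difference of -0.01 over them. E27-shuffled3_E27-shuffled3 was in 177 of the 4563 shared EC combinations, with a median difference of 0.15. The number of barcodes behind each combination is not in the table used, so its part in these differences was not tested.

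**Figure D5:**
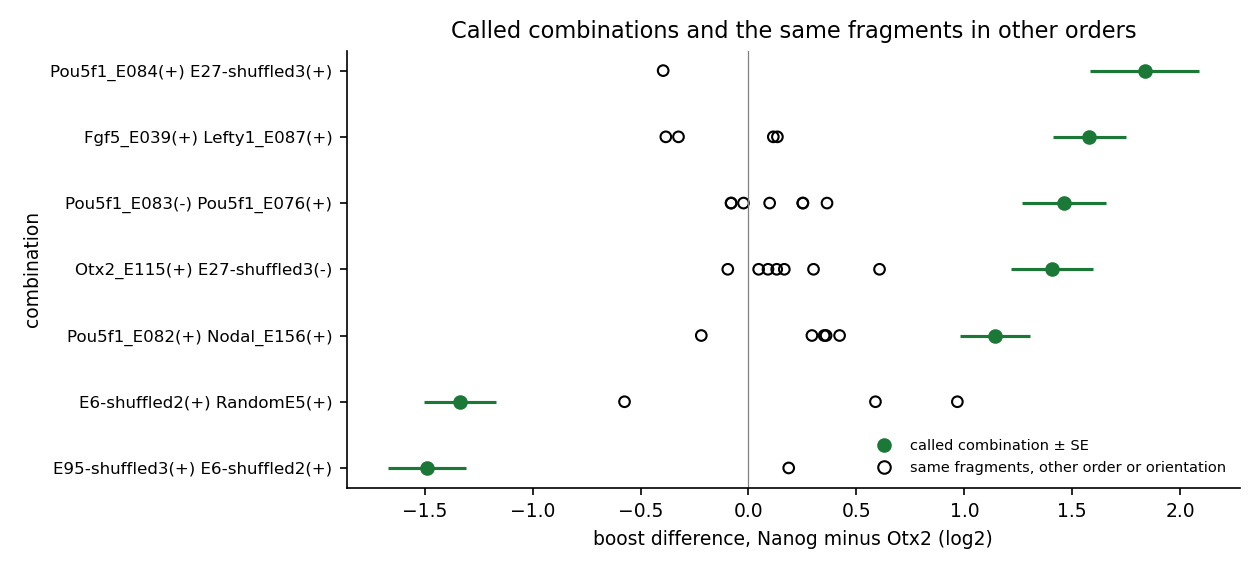
Difference of the boost, *Nanog* minus *Otx2* (log2), of the 7 combinations that passed the test (green, with limma's SE over 3 replicates per library) and of the same fragments in other orders or orientations (open circles). The called values are at or above 1.14 or at or below -1.34, and none of the other arrangements reaches them.

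The 20 controls give the background of the comparison. Their median difference over CC combinations ranged from -0.37 to 0.24, and each was measured in 2 to 63 such combinations. The highest were RandomE4_RRandom4 (0.24 over 24 combinations) and RandomE2_RRandom2 (0.18 over 13), and the lowest E27-shuffled3_E27-shuffled3 (-0.37 over 4) and RandomE3_RRandom3 (-0.12 over 31). When the same controls were grouped by their EC combinations, 19 of the 20 medians were above 0, from -0.01 to 0.25. These groups share the enhancers, the libraries and their baselines. The common shift of EC combinations therefore enters each of them, and the count is no separate support for it. The exception was E6-shuffled3_E6-shuffled3 (-0.01 over 312 combinations).

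For scale, the difference was set beside those to the *Klf2* promoter, another promoter of a naive pluripotency factor, over combinations measured in all 3 libraries. The log2 baseline of *Klf2* was -1.20, -1.42 and -1.35, between those of *Nanog* and *Otx2* on average. Over 56 enhancers the median absolute difference was 0.13 for *Nanog* minus *Otx2*, 0.16 for *Nanog* minus *Klf2* and 0.06 for *Otx2* minus *Klf2*. After centring on the median these were 0.09, 0.09 and 0.06. The comparisons share libraries, and no test was made between them. Fgf5_E036 had 0.21 for *Nanog* minus *Klf2* and -0.20 for *Otx2* minus *Klf2*, and Nanog_E073 had 0.30 and -0.11. The lowest value for *Otx2* minus *Klf2* was that of Otx2_E110 (-0.28).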

How the data were processed

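Barcodes of the cDNA and pDNA samples were counted by the authors after clustering with Starcode, and were linked to fragment pairs with Bowtie2. Each count was divided by the total of its sample, and the authors' deposited activity is the cDNA to pDNA ratio averaged over barcodes, with 1 column per biological replicate. Each replicate was sequenced in more than 1 run, and how the runs were joined is not given in the sources used here. The authors set a minimum number of barcodes per combination and of pDNA counts per barcode. Barcode numbers and read counts behind these ratios are not in the table, so that the depth above these minimums is unknown and no counting error is given. Its class column counts shuffled controls as enhancers (99342 EE combinations), so that types were taken from its columns that mark control fragments (69206 EE combinations). The authors' baselines, boost indices and expected activities were not used.

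Boosts were calculated per replicate with Python 3.11.15, numpy 2.4.6 and pandas 2.3.3. Enhancers and combinations were tested with lmFit and eBayes of limma 3.58.1 in R 4.3.3 over 3 *Nanog* and 3 *Otx2* replicates, with Benjamini-Hochberg adjustment over all features of a fit and a threshold of 0.05. Medians over combinations were compared by exact two-sided permutation of the replicates. The replicates were transfected on different days, and p-values measure the spread between them, which eBayes shares across the features of a fit. The fits were run on simulated data with noise drawn separately for each feature and known differences larger than that of any enhancer here. Shifts shared by all features of a replicate were not simulated, so that the simulation does not cover them. Enhancers of the *Nanog* and *Otx2* loci, the 3 strongest and weakest, overlapping fragments, called EE combinations (at most 3 in each direction) and the outermost 2 controls in each direction are named by rule, and no enhancer met the rule for enhancers past the threshold. The members, lists and tests were chosen with earlier results of these data known. Alternatives changed the replicates, the pseudocount, the filter on low activities, the baseline, the averaging, the position and the minimum of EC combinations. Motifs were searched in RefSeq promoter windows only, and in enhancers they were not analysed here.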

Additional observations from a re-analysis of the deposited data

Results flagged for a closer look

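The 7 combinations below are listed because limma found a difference of their boost between the promoters. Fgf5_E039(+) with Lefty1_E087(+) had 1.58, Pou5f1_E083(-) with Pou5f1_E076(+) had 1.46, and Pou5f1_E082(+) with Nodal_E156(+) had 1.14 (log2, *Nanog* minus *Otx2*). With the control E27-shuffled3_E27-shuffled3, Pou5f1_E084(+) had 1.84 and Otx2_E115(+) had 1.41. With E6-shuffled2_E6-shuffled2(+), RandomE5_RRandom5(+) had -1.34 and E95-shuffled3_E95-shuffled3(+) had -1.49. Relative to the EE median of each replicate, a comparison chosen after seeing the data, only the last passed (limma, adjusted p = 0.03), and the others had adjusted p-values from 0.07 to 0.15.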

How the results depend on the processing

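The numbers of calls depended on the settings, given here as higher and lower with *Nanog*. For combinations (5 and 2) they were 1 and 0 with log2(activity + 0.1), 6 and 1 without the lowest 10% by activity, 1 and 2 with the baseline from shared CC combinations, 2 and 2 with the baseline as a mean of log2 values, 15 and 3 with a trend in eBayes, and 0 to 38 and 0 to 12 without 1 replicate. Relative to the EE median, 0 were higher and 1 lower, with 0 lower without the lowest 10% and 0 to 0 without 1 replicate. For single enhancers (0 and 0), 1 was higher without the lowest 10%, and 0 to 15 without 1 replicate. For relative differences (0 and 0), 1 was lower with means over combinations and 1 with position 1 only, and 0 to 1 without 1 replicate. For pairs, 0 to 24 were higher without 1 replicate. The median CC difference became 1.75e-06 with the baseline from shared CC combinations, which sets it near 0 by construction.

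Same-numbered replicates deviated together for replicates 1 and 2 but hardly for replicate 3 (r of 0.35, 0.24 and 0.02 over EE combinations). Between replicates of unlike number r ranged from -0.36 to 0.14. Whether the same number marks the same day is not given in the sources used here, and the main fits did not take the numbers as pairs. With the replicate block, 255 combinations were higher and 82 lower, 2 single enhancers were higher, 1 enhancer was higher in the relative fit, 0 in pairs, and 0 combinations were lower relative to the EE median. The block leaves differences of medians as they are, and with 3 pairs no exact sign-flip test of them can pass. *Nanog* replicate 3 correlated best with *Otx2* replicate 1.

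Fgf5_E036 and Nanog_E073 kept a difference above 0, and Nodal_E162 and Lefty1_E087 below 0, in all 15 alternatives of the single-enhancer fit and all 16 of the relative fit. They lie at the ends of the order, and the alternatives reuse the same libraries, so that a kept sign is no separate support. In the single-enhancer fit, most of the other enhancers checked also kept their sign in all alternatives, among them Nanog_E064 and Otx2_E115. Nanog_E088 kept it in 8 of 15. Without 1 replicate, the EC difference ranged from 0.08 to 0.19, the EE difference from 0.11 to 0.29 and the baseline difference from -0.44 to -0.25. Barcode numbers were not in the table used, so that no limit by depth beyond the authors' minimums could be tried.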
